A study of Mus musculus with 88 samples.

Results

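The samples described here were 6 nuclear RNA libraries of the medial prefrontal cortex (mPFC), 3 from mice taken 10 min after contextual fear conditioning (CFC10) and 3 from naive mice, chosen by the labels for region, NeuN- fraction and condition from the 88 samples of the series, of which 74 were RNA. All mice were male C57BL/6J of 4 months, housed singly before use. Conditioned mice were placed in a context, received foot shocks there, and were killed 10 or 30 min after placement, while naive mice stayed in the home cage. mPFC tissue, from which white matter and meninges had been removed, was dissociated and fixed, and nuclei were sorted on the neuronal nuclear antigen NeuN. The NeuN- sort carries the label Glia and is defined only by the missing stain, so it holds astrocytes, oligodendrocytes and their precursors, microglia and vascular cells together. The labels do not say that the replicates were separate animals, and p-values measure only the spread between these samples.

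Glia respond to the transmitters, hormones and metabolic signals that accompany neuronal firing. Early response genes such as Fos, Egr1 and Nr4a1 are transcribed within minutes of calcium, cAMP or growth factor signaling, without new protein synthesis. Heat shock genes are switched on by HSF1 when proteins misfold, and corticosterone released during stress acts through the glucocorticoid receptor, which is found in most glia. RNA was counted over whole gene bodies, introns included, so a rise can be seen while the transcript is still being made.

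The naive libraries held 10577263 to 11515785 gene counts and the CFC10 libraries 10900592 to 11412813, so depth did not separate the groups. Of the 53749 gene IDs counted, 14866 passed the minimum level of 0.2 FPKM (fragments scaled to gene body length and library size) and were tested in edgeR's quasi-likelihood fit of the 9 mPFC NeuN- libraries (naive, CFC10 and CFC30). Here "rose" and "fell" refer to a Benjamini-Hochberg adjusted p under 0.05 over all genes tested, levels are library-scaled counts (CPM, the gene's share of all counts of its library, scaled alike in every library), and fold changes are log2 of CFC10 over naive. Their standard errors (SE, after ±) were derived from the test, as the absolute log2 fold change divided by the square root of the quasi-likelihood F statistic. Rbfox3, the gene of the NeuN antigen, checked the sort. It was below the level filter and stood at 17.5, 23 and 60.9 CPM in naive and 32.8, 29.2 and 50.5 CPM in CFC10 libraries, against a mean of 1740 CPM in naive NeuN+ nuclei. As a share of the NeuN+ level, Rbfox3 was 1.01 to 3.49% in naive and 1.59 to 2.75% in CFC10 libraries, and the groups overlapped.

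At 10 min, 254 of the 14866 genes (1.71%) differed from naive. Of these, 110 rose (0.74%) and 144 fell (0.969%). The changes were small: the median log2 fold change was 0.452 among the risen and -0.419 among the fallen genes, only 9 rose and 6 fell by more than 2-fold, and the median over all genes tested was -0.00134. In all 254 genes the CFC10 and naive libraries did not overlap, whereas over all genes tested the CFC10 libraries lay above all naive libraries in 9.96% and below them in 11.9%. Of the 110 genes that rose, 108 were protein coding, against 121 of the 144 that fell and 11874 of all 14866 tested. The counts depended on single libraries: without naive replicates 1, 2 and 3 in turn, 12, 14 and 56 genes rose and 17, 26 and 78 fell, and without CFC10 replicates 1, 2 and 3 the counts were 61, 29 and 23 and 93, 40 and 25. All 254 genes kept their direction in each of these 6 fits. Genes called in each of the 6 fits that left out a library numbered 10 among the risen (Fos, Arc, Nr4a1, Pde10a, Hdac4, Siah2, Lhfp, Cdh20, Map3k19 and Ppp1r3c) and 13 among the fallen, and 39 risen and 50 fallen genes were called in none of them.

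Among early response transcription factors, 21 of 28 listed genes were tested, 4 rose and none fell, against 0.74% rising over all genes. Their median log2 fold change was 0.345. With single libraries left out, 2 or 3 of them rose, and in DESeq2 2 did. The median was 0.224 without CFC10 replicate 3 and ran up to 0.477 without naive replicate 2. Fos, a subunit of the AP-1 factor (GRCm38, chr12:85473890-85477273, plus strand), gave 4, 4 and 2 counts in the naive libraries and 47, 27 and 42 in the CFC10 libraries. As a level, Fos stood at 0.347, 0.353 and 0.189 CPM before and 4.12, 2.37 and 3.85 CPM after conditioning. Every CFC10 library thus exceeded every naive library several times over, and the log2 fold change was 3.48 ± 0.37 (edgeR adjusted p = 0.00105). Egr1, a zinc finger factor induced by growth factor and synaptic signals, rose from 2, 2.03 and 1.42 CPM to 4.56, 5.61 and 8.35 CPM (log2 fold change 1.75 ± 0.29, edgeR adjusted p = 0.0103). Nr4a1, an orphan nuclear receptor, rose from 7.12, 7.33 and 5.77 CPM to 13, 12.7 and 15.8 CPM (1.04 ± 0.16, edgeR adjusted p = 0.0085). Nfil3, a basic leucine zipper repressor, rose by 0.95 ± 0.21 (edgeR adjusted p = 0.0389), a call lost in each fit that left out a library. Junb, another AP-1 subunit, did not pass, with 1.56, 3.44 and 2.74 CPM in naive and 2.89, 3.5 and 3.39 CPM in CFC10 libraries. The activity factors Npas4 and Fosb were under the level filter, with 1, 4 and 12 against 7, 18 and 7 counts for Npas4 and 0 to 4 counts in every library for Fosb.

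**Figure D1:**
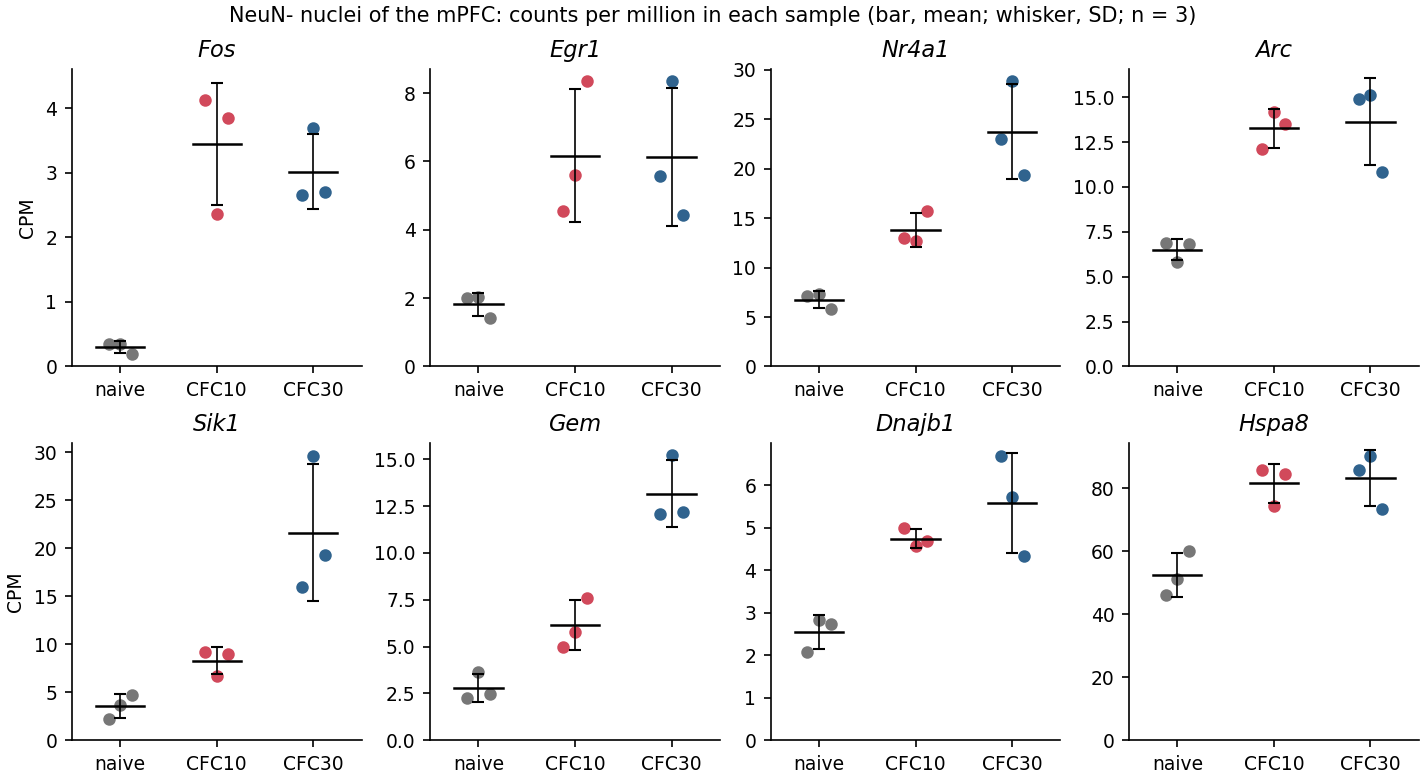
Level in CPM (vertical axis) of 8 genes in each mPFC NeuN- library of naive, CFC10 and CFC30 mice, each point a library, with the bar at the mean and the whisker the SD (n = 3). Fos and Arc were about as high at 10 as at 30 min, while Sik1 and Gem were higher at 30 min than at 10 min.

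Genes that carry out the early response moved with these factors. Of 33 effectors tested, 7 rose, against 0.74% of all genes tested, and none fell, with a median of 0.406. With a library left out, 1 (without naive replicate 1) to 4 of them rose and the median stayed between 0.337 and 0.5. Arc, which regulates AMPA receptor endocytosis at synapses, went from 6.86, 5.83 and 6.81 CPM to 12.1, 14.2 and 13.5 CPM (log2 fold change 1.03 ± 0.15, edgeR adjusted p = 0.0043). Sik1, a salt-inducible kinase that restrains CREB coactivators, went from 2.26, 3.71 and 4.73 CPM to 9.21, 6.66 and 8.99 CPM (1.23 ± 0.28, edgeR adjusted p = 0.0392). Ccn1, a secreted matrix-associated protein, went from 1.65, 2.74 and 1.61 CPM to 5.09, 3.68 and 4.13 CPM (1.10 ± 0.23, edgeR adjusted p = 0.0256). For all 3 genes the lowest CFC10 library was above the highest naive library, although Sik1 passed in none of the fits that left out a library. Errfi1, an inhibitor of the EGF receptor, rose by 0.67 ± 0.11, the antiproliferative genes Tob1 by 0.55 ± 0.09 and Tob2 by 0.41, and the poly-ADP-ribose transferase gene Tiparp by 0.43 ± 0.08. Btg2, a relative of Tob1, gave 0.52 ± 0.16 and did not pass (edgeR adjusted p = 0.129). Outside that list, Gem, a small GTPase that inhibits calcium channels and was enriched in hippocampal GFAP+ (astrocyte) nuclei, rose from 2.26, 3.62 and 2.46 CPM to 5, 5.78 and 7.61 CPM (1.14 ± 0.21, edgeR adjusted p = 0.0179). Of 10 tested feedback inhibitors of MAP kinase signaling, Spry2 alone passed (0.41 ± 0.10, edgeR adjusted p = 0.0452), a call lost in each fit that left out a library, and their median was 0.0402. Dusp1, the MAP kinase phosphatase of that list, did not pass the level filter, which divides by gene body length, and therefore had no test. Its counts were not low for a tested gene. The mean in CFC10 libraries was 7.77 CPM for Dusp1 and 3.45 CPM for Fos, which was tested. Dusp1 gave 35, 33 and 34 counts in naive and 78, 99 and 85 counts in CFC10 libraries, so that its groups did not overlap.

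Several risen genes of these lists carry, within 250 bases before their RefSeq start (GRCm38.p6), the letters bound by CREB or by heat shock factors, searched on both strands. The windows of 30 bases below are shown because they place these letters beside early response genes and a chaperone gene described here. Capitals mark TGACGT (the core of the cAMP response element, ACGTCA when read on the gene's other strand), the full element TGACGTCA, or a pair of heat shock units written GAANNTTC. The windows lie at chr12:85473812-85473841 (plus strand), chr3:145650027-145650056 (minus strand), chr4:150855008-150855037 (plus strand) and chr4:40722333-40722362 (plus strand), in this order.
Fos: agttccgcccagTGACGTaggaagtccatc
Ccn1: gccgacagagctACGTCActgcaacacgcg
Errfi1: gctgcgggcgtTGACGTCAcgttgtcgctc
Dnaja1: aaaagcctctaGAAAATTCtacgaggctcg
RefSeq promoters were matched for 82 of the 110 risen genes, and TGACGT was found in 8 of them (9.76%), against 11.5% of the matched promoters of all genes tested and 7.29% of all promoters. The palindrome TGACGTCA was in 3 of 82 (3.66%), against 3.14% of promoters of tested genes. GAANNTTC or TTCNNGAA was in 9.76% of the risen genes' promoters, against 12% of those tested and 14.5% of all. Of the risen chaperone genes described below, only Dnaja1 held the heat shock pair in a matched promoter. In the 107 matched promoters of fallen genes the pair was in 15%, TGACGT in 4.67% and TGACGTCA in 0%. A heat shock element of 3 units was in 0 of 82 risen, 1 of 107 fallen and 0.45% of tested promoters. The risen genes as a group thus held none of these letters at a share far from the other tested genes.

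Some chaperone genes rose as well. Of 31 genes tested on a list of HSF1-dependent chaperones and co-chaperones, 7 rose, against 0.74% of all genes tested, and none fell. Positive fold changes were found for 28 of the 31, against 7287 of all 14866, and the median was 0.298. None passed without naive replicate 1 or without naive replicate 2, and 2 or 3 did without any other library, while the median ran from 0.269 to 0.35. Hspa8, the constitutive HSP70 (chr9:40800984-40810087, plus strand), went from 45.9, 51.3 and 60 CPM to 85.8, 74.2 and 84.4 CPM (log2 fold change 0.64 ± 0.10, edgeR adjusted p = 0.00879). Its HSP40 partner Dnajb1 went from 2.08, 2.83 and 2.74 CPM to 5, 4.56 and 4.68 CPM (0.90 ± 0.20, edgeR adjusted p = 0.0393), and Dnaja1, another HSP40, rose by 0.66 ± 0.15. Each of these chaperones was higher in all CFC10 libraries than in any naive library, and the Dnajb1 call was lost in each fit that left out a library. The HSP90 genes followed: Hsp90aa1 went from 30.4, 40 and 40.9 CPM to 58.8, 55.3 and 53.2 CPM and Hsp90ab1 from 52.6, 60.9 and 69.8 CPM to 85.4, 78.4 and 98.7 CPM. Their log2 fold changes were 0.59 ± 0.12 and 0.52 ± 0.10. Ahsa2, a relative of the HSP90 activator, rose by 0.46 ± 0.11. Cryab, the small heat shock protein abundant in oligodendrocytes and astrocytes, went from 15.5, 13.9 and 14.1 CPM to 21.6, 24.8 and 21.7 CPM (0.65 ± 0.13, edgeR adjusted p = 0.0258). Hsph1, the HSP110 nucleotide exchange factor, gave 0.50 ± 0.16 at 10 min and did not pass (edgeR adjusted p = 0.129), and at 30 min it was at 1.12 (edgeR adjusted p = 0.000541).

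**Figure D2:**
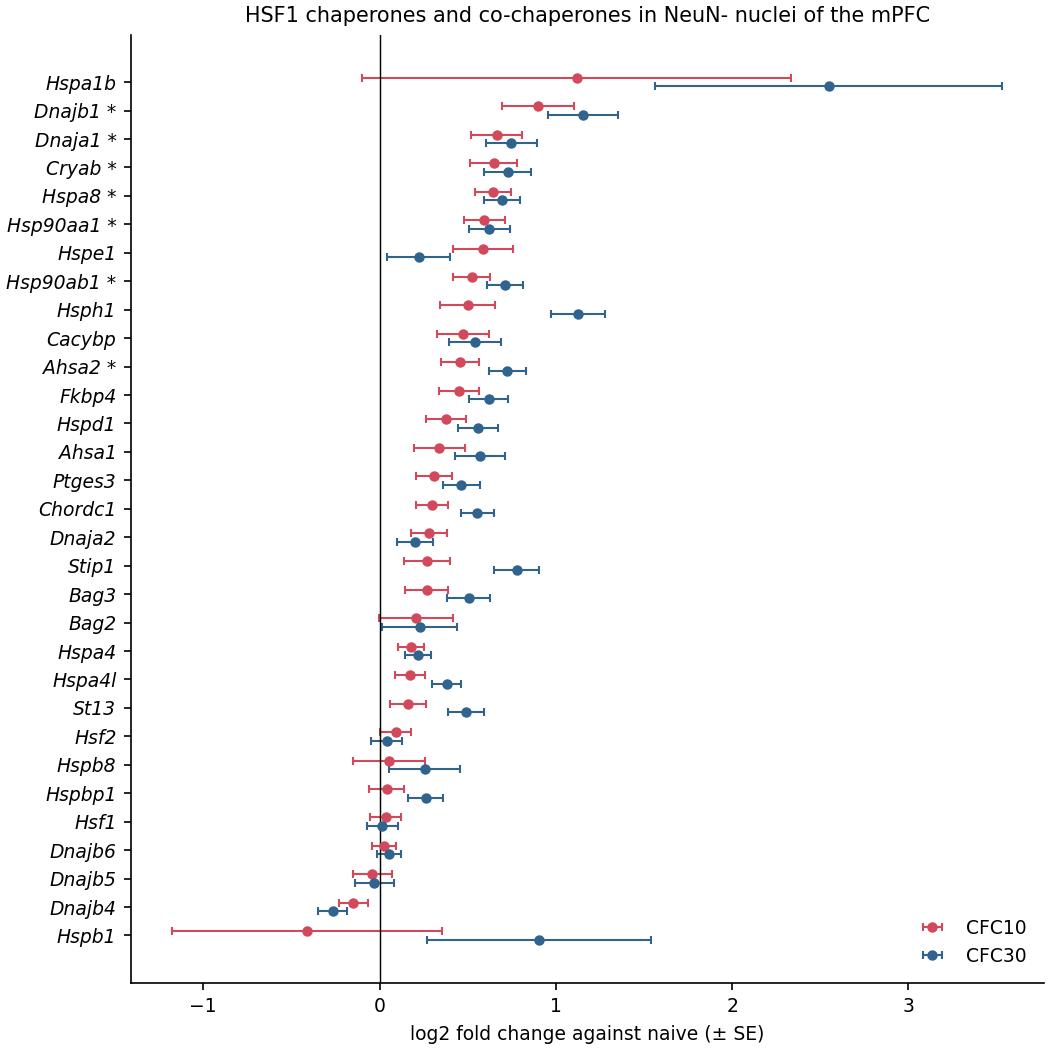
Log2 fold change against naive (horizontal axis, whiskers ± 1 SE) of the 31 tested chaperone genes in mPFC NeuN- nuclei at 10 and 30 min, with an asterisk on the 7 that rose at 10 min. Most points lie to the right of 0 at both times, and 28 of 31 do at 10 min.

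The subunits of the chaperonin TRiC, which folds actin and tubulin, gave positive fold changes in 8 of 8 cases with a median of 0.262, and none passed. All 20 tested genes of the unfolded protein response of the endoplasmic reticulum were likewise positive (median 0.2), and none passed at 10 min. At 30 min 9 of them had risen, against 2.68% of all genes tested. Since the genes of each list were measured in the same 6 libraries, a shared sign is a description and not a count of independent observations. Of 93 cytosolic ribosomal protein genes, a group chosen after the values were seen, 73 were positive too (median 0.17) and none passed. The part of such a shared shift in the chaperone values was not tested.

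Glucocorticoid-responsive genes were mostly above naive without passing. Of 26 tested, 2 rose, Errfi1 (above) and Tsc22d3, against 0.74% of all genes tested. The median was 0.312, or 0.165 without CFC10 replicate 1. Neither passed without naive replicate 1 or without naive replicate 2. Tsc22d3, the leucine zipper protein GILZ, went from 81.2, 91 and 111 CPM to 214, 132 and 120 CPM (log2 fold change 0.73 ± 0.17, edgeR adjusted p = 0.0439). CFC10 replicate 1 was the highest of the 6 libraries for Tsc22d3, and also for Fkbp5, the receptor co-chaperone, with 128 CPM against 53.1 and 46.3 CPM in the other CFC10 libraries and 38.6, 48.8 and 73.5 CPM in naive. Fkbp5 did not pass (0.51 ± 0.31, edgeR adjusted p = 0.46). Pdk4, which diverts pyruvate from the mitochondrion, gave 0.61 (edgeR adjusted p = 0.0561), Sgk1, a salt and stress kinase, 0.45 (edgeR adjusted p = 0.188), and Klf9 0.30 (edgeR adjusted p = 0.0961). At 30 min 13 of the 26 had risen, against 2.68% of all genes tested. Among 17 clock genes the sole call was Per3, a period gene, which fell from 250, 251 and 240 CPM to 191, 194 and 198 CPM (-0.34 ± 0.06, edgeR adjusted p = 0.0123). Per1, which responds to both cAMP and glucocorticoids, gave 0.24 ± 0.10 at 10 min (edgeR adjusted p = 0.266) and was 0.77 higher at 30 than at 10 min (edgeR adjusted p = 0.0012).

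Most of the risen genes were outside these lists. Pde10a, a cyclic nucleotide phosphodiesterase (chr17:8525372-8986648, plus strand), went from 155, 154 and 164 CPM to 358, 343 and 685 CPM (log2 fold change 1.56 ± 0.20, edgeR adjusted p = 0.00228). Hdac4, a histone deacetylase that shuttles out of the nucleus on calcium signals, went from 237, 233 and 233 CPM to 361, 311 and 381 CPM (0.59 ± 0.08, edgeR adjusted p = 0.00299). Siah2, a ubiquitin ligase, went from 17.4, 16.8 and 18.6 CPM to 27.2, 28.7 and 28.9 CPM (0.69 ± 0.08, edgeR adjusted p = 0.00188). In each of the 3 genes the naive libraries lay close together and far below the lowest CFC10 library. Ppp1r3c, which targets a phosphatase to glycogen, went from 9.38, 9.71 and 8.04 CPM to 17.1, 14.7 and 14.8 CPM (0.78 ± 0.11, edgeR adjusted p = 0.00513). Map3k19, a MAP kinase kinase kinase, went from 14.5, 16 and 16.1 CPM to 27.8, 22.3 and 25.1 CPM (0.70 ± 0.10, edgeR adjusted p = 0.00381). Lhfp, a tetraspan membrane protein gene, went from 84.9, 92.2 and 103 CPM to 215, 145 and 164 CPM (0.91 ± 0.12, edgeR adjusted p = 0.00299), and the abundant cadherin gene Cdh20 from 721, 708 and 738 CPM to 963, 974 and 987 CPM (0.44 ± 0.05, edgeR adjusted p = 0.00159). CFC10 replicate 3 was the highest library for Pde10a, and CFC10 replicate 1 for Lhfp.

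Many of the genes that fell were microglial. Genes enriched in hippocampal PU.1+ (microglial) nuclei of saline-treated mice, taken as at least 5 CPM there and at least 4-fold above NeuN+, GFAP+ and 3X- nuclei (the last negative for all 3 stains and rich in oligodendrocytes), were 774 of the genes tested (5.21%). Of these 774, 56 fell and none rose, so that PU.1+ genes were 38.9% of the 144 fallen genes. Their median log2 fold change was -0.172, 674 had a negative one, and in 313 the CFC10 libraries lay below all naive libraries, as they did in 11.9% of all genes tested. Without a library, 10 (naive replicate 1 left out) to 39 (CFC10 replicate 1 left out) of the 774 fell, none rose, and the median stayed between -0.193 and -0.152. All 12 genes of a microglia marker list had negative fold changes (median -0.252), against 7579 of all 14866 genes tested. Of the 12, 4 fell, against 0.969% of all genes, although none fell without naive replicate 1 or without naive replicate 2. Siglech, a sialic acid binding receptor of microglia, went from 179, 183 and 164 CPM to 127, 129 and 132 CPM (-0.44 ± 0.07, edgeR adjusted p = 0.00879). P2ry12, the purinergic receptor of ramified microglia, went from 189, 187 and 207 CPM to 144, 140 and 150 CPM (-0.42 ± 0.10, edgeR adjusted p = 0.0415). Trem2, a lipid-sensing receptor, fell by 0.47 ± 0.10. For these 3 genes every CFC10 library was below every naive library, and Siglech passed in 4 and P2ry12 in none of the 6 fits that left out a library. Defining markers that did not pass included Tmem119 (-0.17), Csf1r (-0.25), Cx3cr1 (-0.25) and C1qa (-0.12). The summed level of the 12 markers was 1674 to 1708 CPM in naive and 1279 to 1448 CPM in CFC10 libraries. In bulk nuclei, fewer nuclei of a type and less RNA per nucleus cannot be told apart.

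Some genes of that population fell by more than the marker sum, whose log2 ratio was -0.316. Adamts16, a secreted metalloprotease gene (chr13:70727802-70841811, minus strand), went from 45.1, 34 and 40.9 CPM to 19.2, 20.7 and 18.5 CPM (log2 fold change -1.03 ± 0.11, edgeR adjusted p = 0.00105). Cd180, a receptor related to the Toll-like receptors, went from 67.3, 60.1 and 66.2 CPM to 36.8, 40.3 and 37.6 CPM (-0.75 ± 0.09, edgeR adjusted p = 0.00188), and Ly86, which encodes its partner MD-1, from 221, 162 and 211 CPM to 136, 121 and 108 CPM (-0.70 ± 0.12, edgeR adjusted p = 0.0103). Both members of this receptor complex were therefore lower in all CFC10 libraries. Ighm, the immunoglobulin mu heavy chain gene, went from 21.5, 22.3 and 19.8 CPM to 10.6, 13.7 and 9.45 CPM (-0.91 ± 0.13, edgeR adjusted p = 0.0043). Klhl6, a ubiquitin ligase adaptor of hematopoietic cells, fell by 0.83 ± 0.12, the myeloid hexokinase gene Hk3 by 0.69 ± 0.10, the cyclooxygenase gene Ptgs1 by 0.51 ± 0.09 and the TGF-beta receptor gene Tgfbr2 by 0.37 ± 0.07. Whether these genes fell by more than the other PU.1+ genes was not tested.

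**Figure D3:**
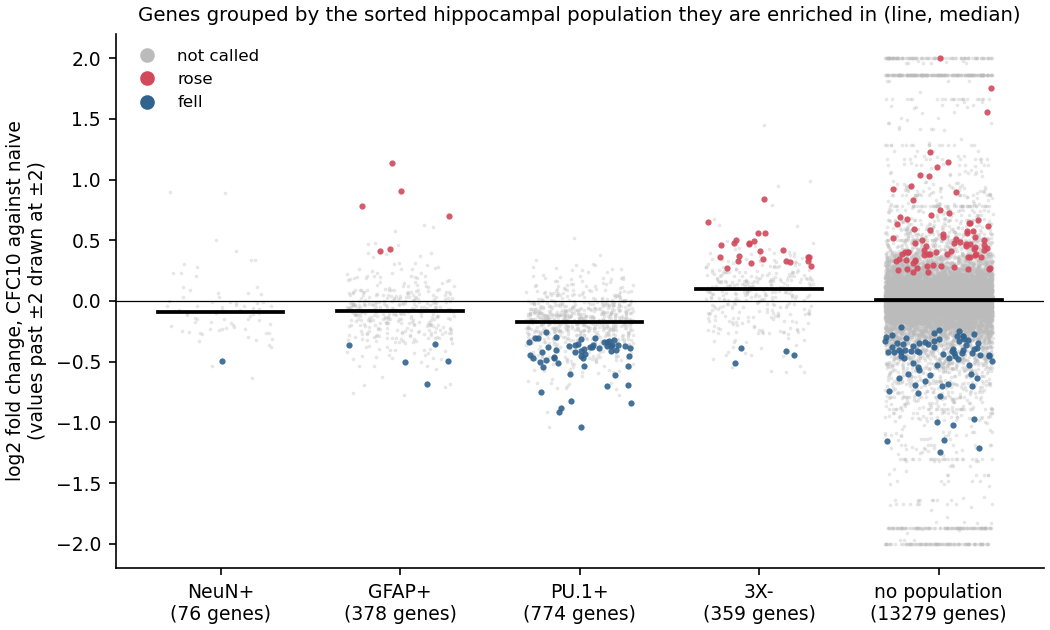
Log2 fold change at 10 min (vertical axis, values beyond ± 2 drawn at ± 2) of the tested genes enriched in each sorted hippocampal population, each point a gene, with a line at the median, red for genes that rose and blue for genes that fell. The 774 PU.1+ genes sit mostly below 0 (median -0.172) and the 359 3X- genes slightly above it (median 0.096).

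Some genes of mature oligodendrocytes moved the other way. Genes enriched in 3X- nuclei were 359 of those tested (2.42%), and 24 of them rose and 4 fell, so that they were 21.8% of the 110 risen genes. With a library left out, 0 (naive replicate 2) to 19 (CFC10 replicate 1) of the 359 rose, no more than 7 of them without any library but CFC10 replicate 1, and the median, 0.096 in all libraries, ran from 0.0593 to 0.154. Of 12 oligodendrocyte markers, 11 were positive, against 7287 of all 14866 genes tested, and 2 rose, against 0.74%. Neither rose where any naive library was left out. Mobp, a myelin protein gene, went from 646, 660 and 650 CPM to 1071, 815 and 827 CPM (log2 fold change 0.48 ± 0.09, edgeR adjusted p = 0.023), with CFC10 replicate 1 the highest, and Mal, a myelin proteolipid gene, from 310, 309 and 313 CPM to 439, 372 and 380 CPM (0.36 ± 0.08, edgeR adjusted p = 0.0439). Apod, Trf and Ugt8a, which encode apolipoprotein D, transferrin and the galactosyltransferase of myelin lipids, rose by 0.36, 0.33 and 0.32. Mog (0.18) and Mbp (0.15), which encode major myelin proteins, did not pass. Cspg4, the NG2 proteoglycan of oligodendrocyte precursors, fell from 141, 141 and 117 CPM to 100, 104 and 99.2 CPM (-0.39 ± 0.08, edgeR adjusted p = 0.0323), the sole call among 7 precursor markers. All 7 had negative fold changes (median -0.237), against 7579 of all 14866 genes tested. In 4 of the 7 the CFC10 libraries lay below all naive libraries, as they did in 11.9% of all genes tested. The summed oligodendrocyte markers were 5363 to 5792 CPM in naive and 6336 to 6536 CPM in CFC10 libraries, so they did not overlap. With the mean log2(CPM + 1) of these markers, in place of their sum, as a covariate, no gene rose and 2 fell. With the same level of the microglia markers, an alternative added after the data were seen, 20 rose and 83 fell, of which only 18 were among the 254 genes. In that fit 2 of the PU.1+ genes rose and 2 fell. No early response effector rose, while 1 early response transcription factor and 1 chaperone did. Both levels separated the groups, so the covariates and conditioning cannot be told apart here.

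**Figure D4:**
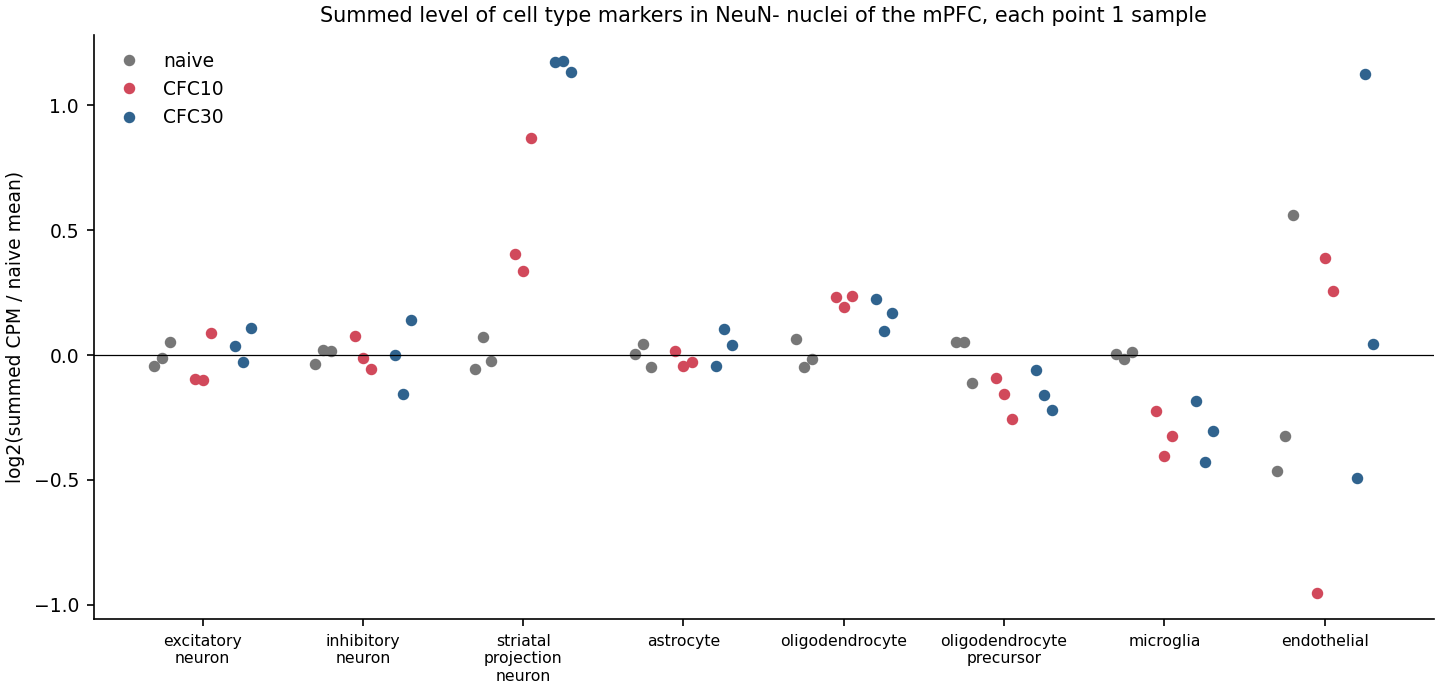
Summed CPM of 8 marker lists in each mPFC NeuN- library, as log2 of its ratio to the naive mean (vertical axis), for naive, CFC10 and CFC30 libraries, each point a library. At 10 min microglia sums lie below and oligodendrocyte sums above the naive libraries, and the striatal sum, raised through Pde10a alone, has its highest value at 10 min in CFC10 replicate 3.

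In the other cell classes few genes were called. Of 378 tested genes enriched in GFAP+ nuclei, 6 rose (1.59%) and 5 fell (1.32%), against 0.74% and 0.969% of all genes. Their median was -0.0806, and 258 were negative, against 7579 of all 14866. The CFC10 libraries lay below all naive libraries in 76 of them and above in 20, against 11.9% and 9.96% of all genes. None of 12 astrocyte markers passed and their sum was 7634 to 8137 CPM in naive and 7663 to 7994 CPM in CFC10 libraries. Endothelial sums ranged from 205 to 416 CPM in naive and from 146 to 369 CPM in CFC10 libraries, with no call among 8 genes. Excitatory neuron markers summed to 821 to 877 CPM in naive and 789 to 900 CPM in CFC10 libraries, and no gene of 10 passed. Of 21 markers of striatal projection neurons, cells of the region below the mPFC, 5 were tested and most were near 0. Drd1 gave 1, 0 and 7 counts in naive and 3, 3 and 5 in CFC10 libraries, and Drd2 6, 5 and 4 against 13, 1 and 4, so these defining markers stayed at a few counts in both groups. The summed striatal list was 576 to 629 CPM in naive and 755 to 1091 CPM in CFC10 libraries. Without Pde10a, which striatal neurons express strongly, the other 20 genes summed to 420.9 to 475.4 CPM in naive and 405.6 to 432.3 CPM in CFC10 libraries, so the whole gain of the sum lay in this gene. Pde10a was the list's sole call, and the median over the 5 tested members was -0.0986.

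Falls outside the microglial genes included unannotated transcripts. Npcd, which shares its gene body with Cbx6 and Nptxr so that its reads could not be assigned with certainty, went from 10.9, 12.1 and 8.7 CPM to 2.46, 5.26 and 5.96 CPM (log2 fold change -1.21 ± 0.24, edgeR adjusted p = 0.0227). 4930447K03Rik went from 11.5, 12 and 10.2 CPM to 5, 5.61 and 4.59 CPM (-1.15 ± 0.17, edgeR adjusted p = 0.00513). Gm45846 went from 62.1, 72.5 and 63.8 CPM to 33, 39.8 and 28.1 CPM (-0.97 ± 0.13, edgeR adjusted p = 0.00381), and AC122898.1 from 86.7, 90.7 and 81.1 CPM to 45.2, 58.8 and 48.4 CPM (-0.76 ± 0.10, edgeR adjusted p = 0.00271). For these 4 genes the CFC10 libraries all lay below the naive ones. Of signaling genes, Bmp7, a bone morphogenetic protein, fell by 0.52, Gli1, the hedgehog effector, by 0.69 ± 0.16 with all libraries but in no fit that left out a library, and Cacna1d, an L-type calcium channel subunit, from 266, 256 and 273 CPM to 207, 205 and 204 CPM (-0.36 ± 0.05, edgeR adjusted p = 0.00613). The fallen genes had longer bodies than the risen, with medians of 61.3 kb and 22.1 kb, against 17.8 kb over all genes tested.

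Against the same naive libraries, 398 genes (2.68%) had risen and 472 (3.18%) had fallen at 30 min. Both times share the naive samples, and the difference between 30 and 10 min shares the CFC10 samples, so that genes called at 10 min are prone to move back in it. By that difference, 82 genes (0.552%) were higher and 22 (0.148%) lower at 30 than at 10 min. Sik1 reached 16, 29.6 and 19.3 CPM at 30 min (log2 difference from 10 min 1.41, edgeR adjusted p = 0.00552), Gem 12.1, 15.2 and 12.2 CPM (1.13, edgeR adjusted p = 0.00489) and Nr4a1 23, 28.9 and 19.4 CPM (0.81, edgeR adjusted p = 0.0115). Map3k19 reached 72.3, 73.8 and 75.7 CPM (1.58, edgeR adjusted p = 2.38e-07), Hdac4 542, 527 and 473 CPM (0.57, edgeR adjusted p = 0.00147) and Pde10a 931, 913 and 765 CPM (0.93, edgeR adjusted p = 0.0349). All 6 genes were thus higher at the later time, whereas Siah2 was lower at 30 than at 10 min by 0.44 (edgeR adjusted p = 0.0175). Fos stood at 2.65, 3.69 and 2.71 CPM and Arc at 14.9, 15.1 and 10.8 CPM at 30 min, and neither passed the test of a difference from 10 min (edgeR adjusted p = 0.84 and 0.905). Of the 110 genes risen at 10 min, 11 were higher and 6 lower at 30 than at 10 min, and of the 144 fallen, 1 was higher and 3 lower.

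The same comparison in NeuN+ nuclei of the mPFC gave 612 risen (3.7%) and 540 fallen genes (3.26%) of 16559 tested. The change at 10 min was higher in NeuN- than in NeuN+ nuclei for 106 genes (0.64%) and lower for 205 (1.24%). The lowest counts with a library left out were 52 higher (without NeuN- naive replicate 2) and 120 lower (without NeuN+ CFC10 replicate 1). Early response genes were among the lower: the log2 change of Arc was 3.81 in NeuN+ and 2.77 smaller in NeuN- nuclei (edgeR adjusted p = 9.27e-07), that of Junb 2.84 in NeuN+ and 2.49 smaller in NeuN- nuclei, and that of Tiparp 1.95 in NeuN+ and 1.51 smaller in NeuN- nuclei (edgeR adjusted p = 0.00043 for both). Fos changed by 4.66 in NeuN+ nuclei, and its difference between fractions of -1.18 did not pass (edgeR adjusted p = 0.615). Hdac4 differed the other way, at 0.09 in NeuN+ nuclei and 0.50 higher in NeuN- (edgeR adjusted p = 0.00566), as did Cdh20, at -0.32 in NeuN+ and 0.76 higher in NeuN- (edgeR adjusted p = 0.00163). The change of Ighm was 1.08 lower in NeuN- than in NeuN+ nuclei (edgeR adjusted p = 0.00782).

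Because NeuN- libraries held some neuronal RNA, the gain in CPM from naive to CFC10 in NeuN- nuclei was set beside that in NeuN+ nuclei. The gain was 10.8% of the NeuN+ gain for Nr4a1, 11.1% for Arc, 12.3% for Egr1, 8.39% for Junb and 40.9% for Fos, but 1.12% for Npas4 and 1.77% for Fosb, both at low counts in NeuN- nuclei. It was 128% for Sik1, 102% for Hspa8 and 97.4% for Dnajb1. Rbfox3 stood at 1.01 to 3.49% of its NeuN+ level, and the excitatory marker Slc17a7 at 8.45 to 16.8% in naive libraries, a range that spans the Arc, Egr1 and Nr4a1 shares. Other neuronal measures gave other shares. By naive means, the 372 genes enriched in hippocampal NeuN+ nuclei (by the rule used for PU.1+ genes) summed to 6.18% of their NeuN+ level. The excitatory markers summed to 45.5% and the inhibitory markers to 109%, but a sum is weighted to its most abundant members. As a mean of log2(CPM + 1) over members, both lists were lower in naive NeuN- than in naive NeuN+ libraries. The excitatory list stood at 3.297 to 3.759 against 5.719 to 5.745, and the inhibitory list at 3.284 to 3.419 against 4.409 to 4.668. The part of neuronal RNA in the gains above was not tested.

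**Figure D5:**
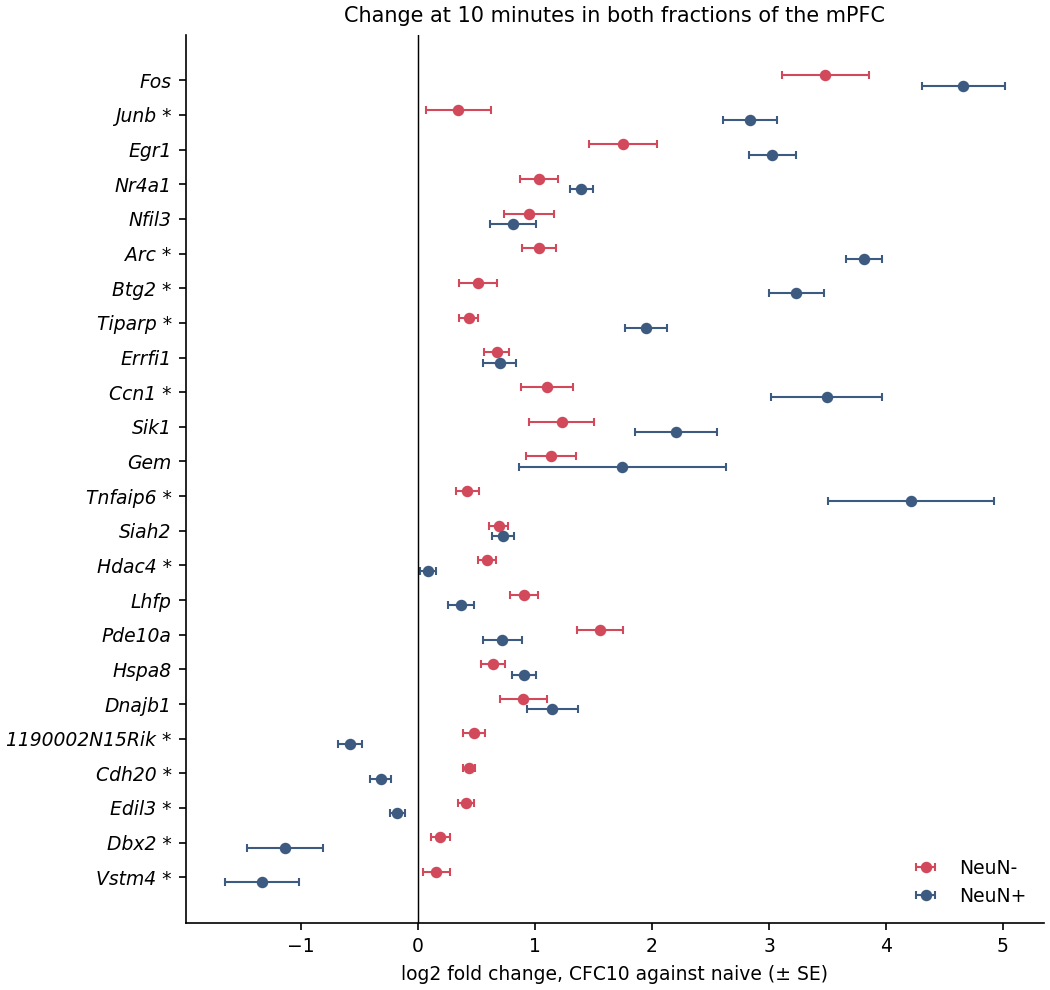
Log2 fold change of CFC10 over naive (horizontal axis, whiskers ± 1 SE) of 24 genes in NeuN- and NeuN+ nuclei of the mPFC, with an asterisk where the difference between fractions passed the adjusted p threshold. Arc and Junb changed more in NeuN+ nuclei, and Hdac4 and Cdh20 more in NeuN- nuclei.

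In NeuN- nuclei of the hippocampus, from other libraries of the series, 50 genes rose (0.317%) and 86 fell (0.545%) of 15769 tested at 10 min. Of the 110 genes risen in the mPFC, 10 also rose there and 104 (94.5%) had the same sign, against 62.1% over all genes tested in the mPFC. Of the 144 fallen, 26 also fell and 126 (87.5%) had the same sign. Hspa8 (log2 fold change 0.75 in the hippocampus, edgeR adjusted p = 0.000549), Cryab (0.67, edgeR adjusted p = 0.0244) and Fos (1.63, edgeR adjusted p = 0.0203) passed there, as did the falls of AC122898.1 (-0.75, edgeR adjusted p = 0.000549), Gm45846 (-0.70, edgeR adjusted p = 0.0191) and 4930447K03Rik (-1.13, edgeR adjusted p = 0.0176). The risen genes had a median of 0.231 in the hippocampus and the fallen genes -0.204. Microglial genes were rarely called there: of the PU.1+ genes 1 fell and none rose in the hippocampus (median 0.0376), and none of the 12 microglia markers passed there (median 0.0915). Pde10a stood at 0.25 there and did not pass (edgeR adjusted p = 0.526). The difference between regions itself passed for no gene in edgeR in either direction (0%), where 894 genes had an unadjusted p under 0.05. By edgeR a difference between regions was thus not shown for any gene named here. In DESeq2 the difference passed for 6 genes higher and 7 lower in the mPFC, which are not identified here.

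The mPFC gamma-H2AX peaks of the series, which mark DNA double-strand breaks, listed 283 genes, of which 267 were tested. Of these, 10 rose, against 0.74% of all genes tested (Arc, Nr4a1, Hspa8, Egr1, Tob1, Fth1, Hsp90ab1, Dynll1, Spry2 and Ptma) and 2 fell, against 0.969% (Sirpa and 3110039M20Rik), in NeuN- nuclei. In NeuN+ nuclei 80 of them rose, against 3.7% of the genes tested there. The median log2 fold change of the 267 genes in NeuN- nuclei was 0.0558.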

How the data were processed

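Nuclear RNA of sorted NeuN- (Glia) and NeuN+ nuclei was measured by RNA-seq. Per the study's methods, the counts come from featureCounts with introns included, on HISAT2 alignments to GRCm38 (mm10). Trimmomatic, Picard (to drop duplicate reads) and SAMtools were also used. Tool versions and the strand setting are not given in the sources used here, so a gene and an overlapping or antisense gene may share reads. The authors deposited raw counts per gene and library, and no other unit was tested. Deposited gamma-H2AX peaks of the mPFC, called by the authors on merged naive and CFC30 tissue samples and then combined, were used only for the genes they list. Library kits differed between mPFC (v1) and hippocampus (v2), and each region was scaled in a joint fit.

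The test was that of edgeR 4.0.16 under R 4.3.3 (TMM scaling, quasi-likelihood F test, two-sided, Benjamini-Hochberg adjusted p under 0.05) over genes whose mean FPKM exceeded 0.2 in at least 1 of the groups fitted, with FPKM computed here from the counts over gene body length. The 9 mPFC NeuN- libraries, the 18 mPFC libraries and the NeuN- libraries of both regions each gave a fit, the last pair with interaction terms. Of the 53749 gene IDs, 67 had no match in GENCODE vM21 and held 0.0266% of mPFC counts. Hippocampal naive NeuN- replicates 3 and 4 were identical in all 53749 genes and counted as 1 sample. CPM used total gene counts, and population genes were set with 0.1 CPM added. Figures and lists used Python 3.11.15, pandas 2.3.3, NumPy 2.4.6 and matplotlib 3.10.9. The scripts were tested on simulated data with known changes in 14866 genes. The test called 36% of 50 genes changed by a log2 of 0.5 and 40% of 50 changed by -0.5. It called 76% of those changed by 1 and by -1, and also 13 unchanged genes. Changes near 0.5 were thus often missed.

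Named genes were the 10 largest rises and 10 largest falls with no overlap and a mean count of at least 50, the 5 largest interaction differences each way, the 4 members of each of 27 lists with the smallest adjusted p, Rbfox3 and 7 early response genes. Others named were chosen after their values were seen. The samples and lists were chosen with earlier results of these data known. Alternatives were DESeq2 1.42.0, its size factors, other filters, other sets of libraries, the replicate number as a block, marker levels as covariates and leaving out each library. The microglia covariate was added after seeing the data. Replicate numbers were not taken to pair the samples. Some members of the marker lists are not reported here.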

Additional observations from a re-analysis of the deposited data

Results flagged for a closer look

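The change at 10 min differed between NeuN- and NeuN+ nuclei, by edgeR's test of the interaction, for 106 genes that were higher and 205 that were lower in NeuN- nuclei. Among genes past the count minimum the largest positive differences (NeuN- minus NeuN+, log2) were those of Vstm4 (1.49, edgeR adjusted p = 0.02), Dbx2 (1.33, edgeR adjusted p = 0.0383), Rtkn2 (1.07, edgeR adjusted p = 0.00566), 1190002N15Rik (1.07, edgeR adjusted p = 0.000281) and Palld (0.978, edgeR adjusted p = 0.0271). In these 5 genes the NeuN+ change was negative, at -1.33 for Vstm4, -1.14 for Dbx2, -0.73 for Rtkn2, -0.59 for 1190002N15Rik and -0.75 for Palld, so that the difference came with a fall in NeuN+ nuclei. The largest negative differences were those of Tnfaip6 (-3.79, edgeR adjusted p = 0.00697), Arc (-2.77, edgeR adjusted p = 9.27e-07), Btg2 (-2.71, edgeR adjusted p = 5.76e-05), Junb (-2.49, edgeR adjusted p = 0.00043) and Ccn1 (-2.39, edgeR adjusted p = 0.0302). These genes changed in NeuN+ nuclei by 4.21 (Tnfaip6), 3.81 (Arc), 3.23 (Btg2), 2.84 (Junb) and 3.49 (Ccn1). The count minimum applied to the highest group of either fraction, so a gene could pass it through 1 fraction alone. Whether the NeuN+ changes rest on few counts was not tested. The SE of the differences named here ran from 0.144 (1190002N15Rik) to 0.746 (Tnfaip6), with 0.342 for Vstm4 and 0.336 for Dbx2.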

How the results depend on the processing

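Rises and falls at 10 min numbered 145 and 208 in DESeq2, 112 and 143 with DESeq2 size factors in edgeR, 292 and 424 with no level filter, 60 and 78 with at least 10 counts in at least 3 libraries, 149 and 223 in the naive and CFC10 libraries alone and 237 and 282 in all 18 mPFC libraries. With marker levels, as the mean log2(CPM + 1) over a list's members, as covariates they were 88 and 128 (striatal), 89 and 108 (excitatory), 0 and 2 (oligodendrocyte) and 20 and 83 (microglia, added after seeing the data). The 254 genes kept their direction in each of these fits, except 2 with the oligodendrocyte covariate. Leaving out a library gave 12 to 61 rises and 17 to 93 falls. Deviations of same-numbered libraries correlated at -0.00538 to 0.202 between NeuN- conditions (different numbers -0.22 to 0.105) and at 0.0145 to 0.0842 between fractions (different numbers -0.0602 to 0.0167). The correlations of same-numbered libraries did not reach 0.1 in every pair. Their medians were higher than those of different numbers between NeuN- conditions (0.0477 against -0.0781) and between fractions (0.0631 against -0.023). These medians hint at a link, which the main fit did not model. The replicate block gave 138 and 205 at 10 min, 477 and 551 at 30 min, 92 and 24 between the times, 120 and 223 between fractions and 0 between regions. Between fractions DESeq2 gave 144 and 320, and leaving out a library gave 52 to 114 higher and 120 to 271 lower, with the lower bounds without NeuN- naive replicate 2 and NeuN+ CFC10 replicate 1. NeuN- naive replicate 1 (64 higher), NeuN- CFC10 replicate 3 (69) and NeuN+ naive replicate 1 (59 and 123) also moved them. Between regions DESeq2 gave 6 and 7, and leaving out a library gave 0 to 1 higher, the 1 without mPFC CFC10 replicate 2, and 0 lower. Between the times DESeq2 gave 117 and 33. For the 128 named genes tested, 1872 values kept direction and side of the threshold, 238 lost and 61 gained the call, and 3 reversed, all with the microglia covariate (gene Flt1 -2.24, gene Kdr -1.72, gene Ly6c1 -2.62). As a median over members in place of a sum, the inhibitory neuron list gave -0.338 and the striatal list -0.0986. The causes were not tested. Fos, with 2 to 4 naive counts, and Npas4 and Fosb, at low counts, are limited by depth. The level filter also depends on gene body length, so a gene under it need not have few counts.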

Other observations

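Nuclear genes of the respiratory chain, grouped after the values were seen, gave positive fold changes at 10 min in 71 of 84 tested, with a median log2 value of 0.152. In 24 of them the CFC10 libraries lay above all naive libraries, against 9.96% of all genes tested, and 1 passed, Ndufa4 (0.63 ± 0.14, edgeR adjusted p = 0.0402), a subunit of cytochrome oxidase, though in no fit that left out a library. The median of the group was 0.0607 at 30 min, 0.0704 in NeuN+ nuclei and 0.116 in hippocampal NeuN- nuclei. Cytosolic ribosomal protein genes had medians of 0.0666 at 30 min, 0.156 in NeuN+ nuclei and 0.223 in hippocampal NeuN- nuclei.

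Several lists had no call at 10 min. None of 16 NF-kB and cytokine genes (median -0.0607), 15 SRF and actin genes (0.021), 20 cholesterol synthesis genes (0.0412), 12 Notch and Hes genes (-0.0321), 9 nuclear long noncoding RNAs (-0.0422) or 11 astrocytic uptake genes (0.000379) passed edgeR's test. At 30 min 3 of the NF-kB and cytokine genes had risen, against 2.68% of all genes tested. Over all genes tested 2395 had an unadjusted p under 0.05 at 10 min.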
